A study of Mus musculus with 12 samples.

Results

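The replication-dependent histone genes were examined in thymic lymphomas of mice. They were taken as every gene of the count table whose Ensembl identifier carries, in GENCODE M21, a symbol starting with Hist1h, Hist2h, Hist3h or Hist4, with at least 10 counts in at least 2 tumours. This gave 51 genes out of the 37991 in the table: 6 for H1, 15 for H2a, 13 for H2b, 5 for H3 and 12 for H4. A further 6 histone identifiers stayed below the limit, among them Hist2h2aa1, Hist2h2aa2, Hist2h3b and Hist2h3c1, which other genes match at every 75-base stretch (100% of windows). Another 13 annotated histone symbols were not matched to an identifier of the table and were not analysed here. All 51 passed the filter on low counts that preceded the tests.

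Replication-dependent histones are the proteins around which newly copied DNA is wrapped: H2a, H2b, H3 and H4 form the nucleosome core, and H1 binds the DNA that links nucleosomes. Their genes lie in clusters, have no introns in the textbook form, and are transcribed mainly while DNA is replicated. Their mRNAs end in a short stem-loop that is bound by the stem-loop binding protein, in place of the poly(A) tail of other mRNAs. Some members are exceptions, such as the testis H1 gene Hist1h1t, and many can also give poly(A)-tailed transcripts.

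All 12 tumours came from C57BL/6 mice of genotype p53neo/R172H;R26CreER/GNZ. These mice carry a mutant p53 allele (R172H) beside an allele (neo) from which wild-type p53 can be restored by a tamoxifen-inducible Cre recombinase at the Rosa26 locus. Every tumour-bearing mouse received tamoxifen weekly by intraperitoneal injection, so no group was left untreated. Growth or shrinkage on magnetic resonance imaging gave 8 responders and 4 non-responders, and the tumours were frozen after the last scan. The labels count each tumour as a separate biological sample, give no batch, pairing, age or tumour size, and give 1 library for each tumour. The design asks what distinguishes tumours that resisted p53 restoration from those that responded.

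Libraries held 20796860 to 30265753 counts, and those of non-responders were smaller in general, with 20796860 to 24393524 against 23808086 to 30265753. Levels are CPM, counts relative to the library total, scaled by the trimmed mean of M values. Trp53, the restored gene, stood at 69.3 ± 20.8 CPM in responders and 69.2 ± 4.36 in non-responders (n = 8 and 4, ± SD); counts over the whole gene do not tell its alleles apart. All 7 T-cell markers (among them Cd3e and Lck) were present, with a summed level of 473 to 2236 CPM in responders and 1643 to 2522 in non-responders. Summed markers of other cells spanned 141 to 2805 against 15.6 to 364 CPM for erythroid cells (9 genes), 24.8 to 694 against 4.04 to 21.7 for neutrophils (8), 17.2 to 218 against 7.98 to 38.4 for B cells (6) and 12.7 to 451 against 5.28 to 19.3 for muscle (6). They spanned 430 to 1654 against 490 to 1380 CPM for macrophages (7 genes) and 248 to 1442.4 against 382 to 1221 for fibroblasts (5), and no marker gene was at 0 in all tumours. Less histone RNA per cell and fewer replicating cells cannot be told apart in such bulk tissue.

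The 3′ end signal bears on what these libraries can hold, because per the labels they were made with an mRNA kit, a kind that selects poly(A)-tailed RNA. Annotated GENCODE M21 transcripts of 35 of the 51 genes held the stem-loop, searched on the transcript strand as a stem of GGNNNT fully paired with ANNNCC (6 bases each) around a loop of the form TNTN. Over all 141767 annotated transcripts the share was 0.0755%. Some of the remaining members are annotated to little more than their coding sequence, such as Hist1h2ak (393 exon and 390 coding bases) and Hist1h4k (312 and 309). In these the 3′ end could not be searched, so a missing match does not show that the stem-loop is absent. The commonest form, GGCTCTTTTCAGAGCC, was found in 18 members, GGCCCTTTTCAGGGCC in 6 and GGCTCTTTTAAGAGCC in 5. The sites of an H1 gene, of a high H2b gene, of 3 genes that varied over 10-fold between tumours and of the chromosome 3 H4 gene are shown with the stem-loop in capitals.
Hist1h1c: caaaaGGCTCTTTTCAGAGCCaccac
Hist1h2bb: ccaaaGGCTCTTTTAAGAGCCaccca
Hist1h2bj: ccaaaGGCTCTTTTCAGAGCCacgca
Hist1h2bk: ccaaaGGCTCTTTTAAGAGCCactaa
Hist1h4i: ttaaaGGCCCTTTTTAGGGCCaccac
Hist2h4: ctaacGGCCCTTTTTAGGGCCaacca

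Hist1h4i and Hist2h4 shared a stem-loop that was not found in the annotated transcripts of other members, and Hist1h2bj differed in its loop from the other H2b genes shown. For 18 members a transcript ran on for 100 bases or more past the stem-loop, and for 11 of these the extra stretch held AATAAA, the usual poly(A) signal. Hist1h1c (840 bases past it), Hist1h2be (1861) and Hist2h4 (1257) were of that kind, while the transcripts of Hist1h2bb and Hist1h2bj ended 23 bases after the site. How much of each gene's count came from tailed RNA was not tested, so levels of different members, and of histones against other genes, describe these libraries only.

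Histone genes took between 0.732% of all counts (responder 6) and 2.17% (non-responder 4). Of the 51 genes, 30 had a mean of 100 CPM or more over the 12 tumours and 43 had 10 CPM or more, in a range from 0.341 to 1174 CPM. Split by type, H1 made up 33.2% ± 1.40 of histone counts in responders and 33.9% ± 3.32 in non-responders, and H4 29.8% ± 1.34 and 29.9% ± 1.13 (n = 8 and 4, ± SD). H2b took 15.96% ± 0.984 and 16.9% ± 0.286, H2a 11.6% ± 0.829 and 10.2% ± 1.77, and H3 9.46% ± 0.823 and 9.01% ± 1.58. The order of the types by share, H1, H4, H2b, then H2a and H3, thus differed little between the groups.

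Levels of different genes were compared per kilobase of annotated exon. On this scale of mean level, Hist1h4f (1423 CPM per kb), Hist1h4h (1376) and Hist1h4k (1043) led H4, Hist1h2bb (1216) led H2b, Hist1h2ak (1015) led H2a and Hist1h3e (542) led H3. Among H1 genes, Hist1h1a came first with 1269 CPM per kb and Hist1h1b followed with 1003. Divided by coding length instead, an alternative chosen after seeing the data, the first places went to Hist1h1c in H1 (1846 CPM per kb) and to Hist1h4d in H4 (2770), both with long annotated 3′ ends. The leaders of H2a, H2b and H3 were the same genes on both scales. At the low end stood Hist2h3c2, Hist3h2a, Hist1h2br and the pseudogenes Hist1h2aj and Hist1h2al.

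Most histone genes were high in the same tumours and low in the same tumours. The 4 lowest sums were all in responders, while the highest sums came from both groups. Summed over all 51 genes, the level was 6302 CPM in responder 6, 7759 in responder 4, 9684 in responder 1, 10109 in responder 5, 12072 in responder 8, 12534 in responder 7, 14982 in responder 3 and 22482 in responder 2. In non-responders 1 to 4 it was 17258, 15845, 11767 and 24030 CPM. Thus responder 2 lay above 3 non-responders, non-responder 3 lay below 4 responders, and the groups overlapped. Non-responder 4 had the highest value for 29 of the 43 genes with a mean of 10 CPM or more, and responder 2 for 10. Responder 6 had the lowest for 22, responders 4 and 8 for 7 each, and responder 1 for 5.

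**Figure D1:**
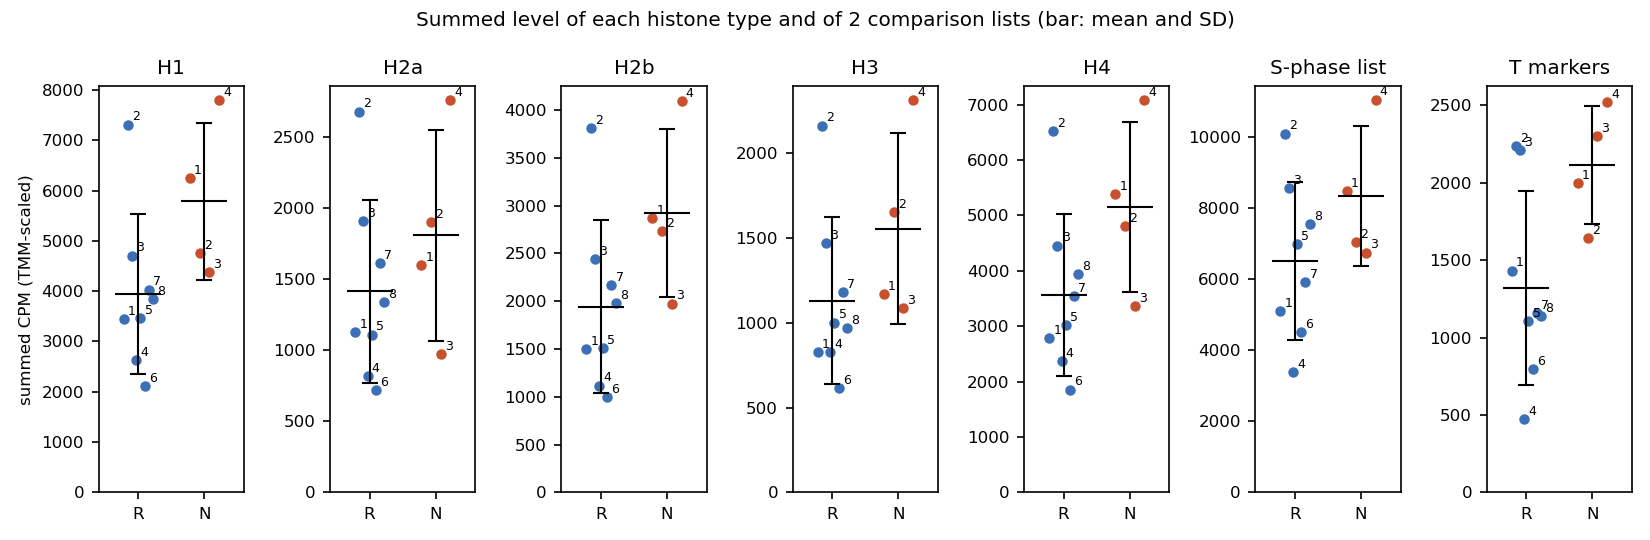
Summed level (CPM) of each histone type, of the S-phase list and of 7 T-cell markers in responders (R, blue, n = 8) and non-responders (N, red, n = 4). Each point is a tumour, labelled with its number, and the bars give the mean and SD. Responders 4 and 6 are lowest and responder 2 and non-responder 4 highest for every histone type, and the groups overlap in each panel.

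The mean sum was 11990 ± 5049 CPM in responders and 17225 ± 5099 in non-responders, a ratio of 1.44. The ratio was 1.47 for H1 (3943 ± 1581 against 5790 ± 1560 CPM) and 1.504 for H2b (1942 ± 906 against 2920 ± 878). It was 1.45 for H4 (3561 ± 1460 against 5154 ± 1537.3), 1.37 for H3 (1131 ± 489.8 against 1554 ± 563) and 1.28 for H2a (1413 ± 643 against 1806 ± 739.9; n = 8 and 4, ± SD). The difference in means was slightly above the SD within a group for H1, H2b and H4 and below it for H2a and H3, and every type's groups overlapped. No test was made on these sums.

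Gene by gene, levels were higher on average in non-responders for 48 of the 51 histone genes, beside 48.5% of all 18612 genes tested. The members' median log2 fold change (non-responder minus responder throughout) was 0.51, against -0.02 for all genes. None passed an adjusted p of 0.05 in edgeR's quasi-likelihood test with Benjamini-Hochberg adjustment over all genes, and neither did any other gene (0%). At an unadjusted p of 0.05, 6 members (11.8%) were higher, beside 7.73% of all genes, and 0 were lower, beside 16.1%. No member's groups were free of overlap, beside 0.951% of all genes higher and 1.18% lower without overlap.

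Other tools and single tumours moved these counts. With limma-voom and quality weights, 23 members were higher at an unadjusted p of 0.05, beside 15.4% of all genes, and 2 passed the adjusted threshold, Hist1h1a (log2 fold change 1.26) and Hist1h4i (2.41), both higher, beside 4.55% of all genes higher and 4.71% lower. DESeq2 gave 6 at an unadjusted p of 0.05 (9.06% of all genes) and 0 after adjustment (2.8% of all genes higher and 10.4% lower). Without non-responder 4 the edgeR count of 6 was 0 and the median log2 fold change 0.27, with 41 of 51 higher; without responder 2 the count was 21 of the 50 members then tested. It was 1 without responder 5, 2 without responder 1, 4, 6 or 8, and 3 without responder 7 or non-responder 1 or 2. The share of all genes at this p in the fits that left out a tumour is not given here. Whether these shifts were particular to the histone genes was not tested.

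**Figure D2:**
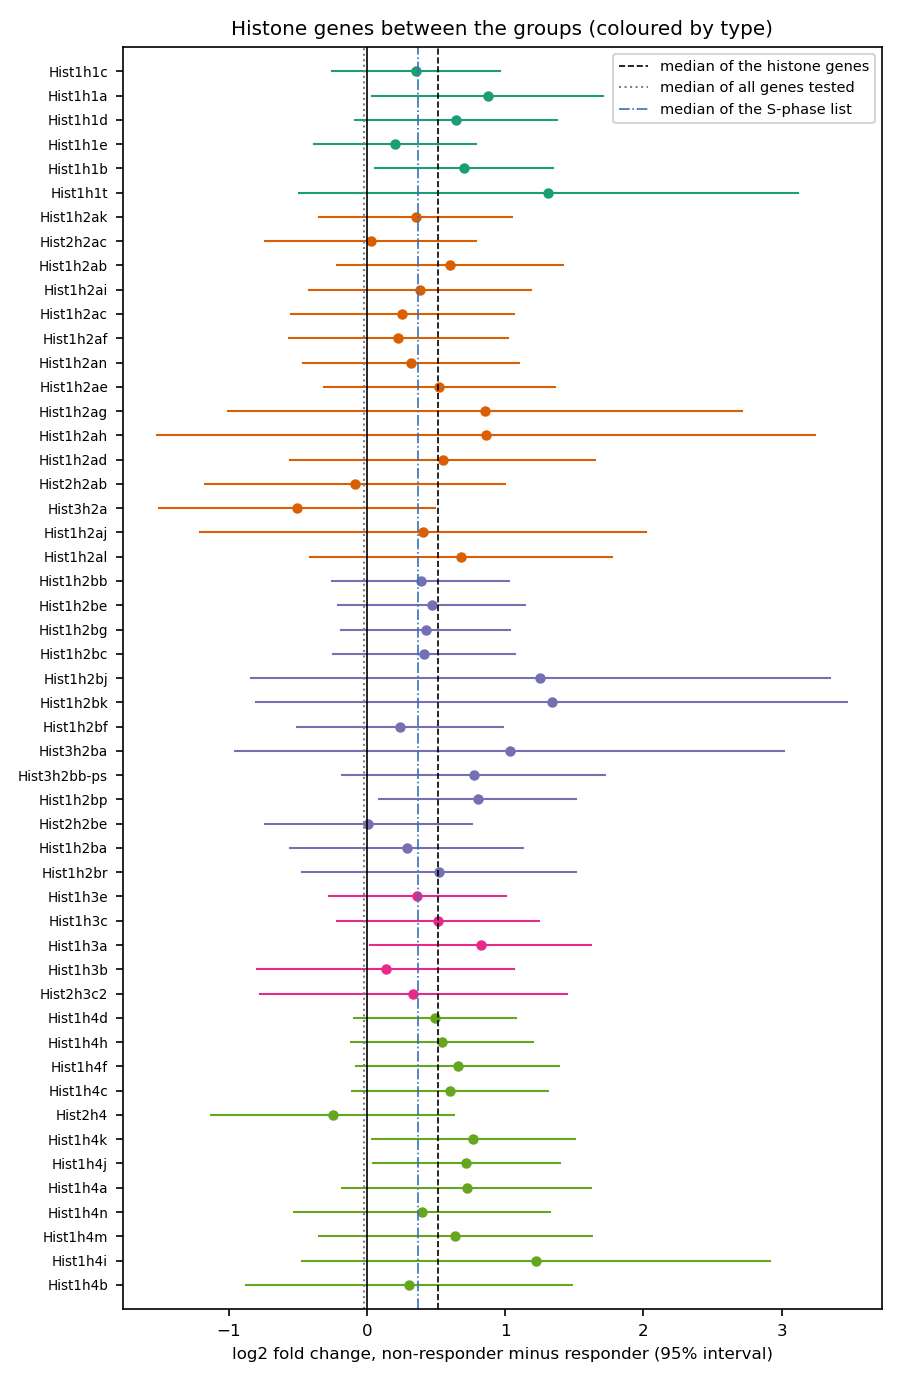
Log2 fold change of each of the 51 histone genes (non-responder minus responder, edgeR) with its 95% interval, coloured by type. Nearly all points lie right of 0, around a median of 0.51 (dashed line; the S-phase list, 0.37, dash-dotted; all genes, -0.02, dotted), while only 6 intervals stay clear of 0.

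Among the linker histones, Hist1h1a and Hist1h1b came closest to a difference. Hist1h1a had its lowest, median and highest level in responders at 252, 539 and 1537.3 CPM, and stood at 1096, 1061, 1292 and 1945 in non-responders 1 to 4. All non-responders were thus above 6 of the responders, while responders 2 and 3 overlapped with them. The log2 fold change of Hist1h1a came to 0.87 (SE 0.39); the edgeR adjusted p was 0.195 (unadjusted 0.0421), and an exact permutation p over all splits of the tumours of 0.0404, adjusted over all genes 0.236. Hist1h1b ranged from 332 over a median of 562 to 1072 CPM in responders and was 1182, 830.3, 711 and 1286 in non-responders. This gave a log2 fold change of 0.70 ± 0.30 (SE; adjusted p in edgeR 0.181). The groups overlapped through responders 2, 3 and 7.

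Hist1h1d had a log2 fold change of 0.64 (SE 0.34), Hist1h1c of 0.35 (SE 0.28) and Hist1h1e of 0.20 (SE 0.27), with edgeR adjusted p of 0.263, 0.461 and 0.67. Hist1h1c, the H1 gene with the highest mean count, was at 625.3 to 1200.1 CPM in 7 responders and 1967 in responder 2, and at 1704, 1219.8, 931 and 1638 in non-responders. Reads in the stretch where Hist1h1e overlaps an annotated Hist1h2be transcript on the same strand cannot be assigned to 1 of them. Hist1h1t, the H1 of male germ cells, was low throughout and uneven: 34.2 CPM in non-responder 1, 17.5 in responder 3 and 0.228 in responder 4.

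In H2b, Hist1h2bp had the lowest p of all members. It ranged from 20.1 over a median of 33 to 62 CPM in responders and was 55.7, 87.0, 28.3 and 68.6 in non-responders. Non-responder 3 thus lay among the responders, and responder 2 lay above non-responder 1. The log2 fold change of Hist1h2bp was 0.80 (SE 0.33, edgeR adjusted p = 0.17, unadjusted 0.0308). Hist1h2bb, Hist1h2be and Hist1h2bg, the H2b genes with the highest mean counts, had log2 fold changes of 0.39, 0.47 and 0.42 with edgeR adjusted p of 0.439, 0.377 and 0.373. Hist1h2bb was at 311 to 1013 CPM in responders (median 511) and at 635, 788, 524 and 988 in non-responders, within the responders' range.

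In H2a, no member had an unadjusted p under 0.05. Hist1h2ak, its leading gene, was at 188 to 662 CPM in responders (median 329.8) and 432, 523, 266 and 645 in non-responders, within that range. Hist1h2ab had a log2 fold change of 0.60 (SE 0.38). Hist2h2ac, from the chromosome 3 cluster, had 0.03, which turned to -0.036 with upper-quartile scaling, so its direction is unset. The 2 H2a genes with lower means in non-responders, Hist3h2a (log2 fold change -0.51) and Hist2h2ab (-0.09, turning to 0.20 in limma-voom), had under 5 CPM in every tumour, and each overlaps another gene.

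In H3, Hist1h3a was at 98.1 to 389 CPM in responders (median 162) and at 287, 374, 205 and 628 in non-responders, with overlap through responders 2, 3 and 7. Hist1h3a had a log2 fold change of 0.82 ± 0.37 (SE; adjusted p in edgeR 0.199, unadjusted 0.0442). Hist1h3c and Hist1h3e, which encode the same core protein type, had 0.51 and 0.36, with adjusted p of 0.37 and 0.47. Hist1h3b went its own way: it took 29.2% of H3 counts in non-responder 3 and 9.10% in non-responder 1, with responders at 14.0% to 25.8%.

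In H4, Hist1h4k and Hist1h4j were the members with an unadjusted p under 0.05. Hist1h4j ranged from 153 over 259.7 to 489 CPM in responders and was 452, 455, 265 and 583 in non-responders. Responder 2 alone reached the level of the higher non-responders. The log2 fold change of Hist1h4j was 0.72 (SE 0.31, edgeR adjusted p = 0.188, unadjusted 0.0389), and that of Hist1h4k was 0.77 (SE 0.34, adjusted p = 0.194). Hist1h4d, Hist1h4h and Hist1h4f, the highest in counts, had log2 fold changes of 0.49, 0.54 and 0.66 and edgeR adjusted p of 0.28, 0.291 and 0.254.

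**Figure D3:**
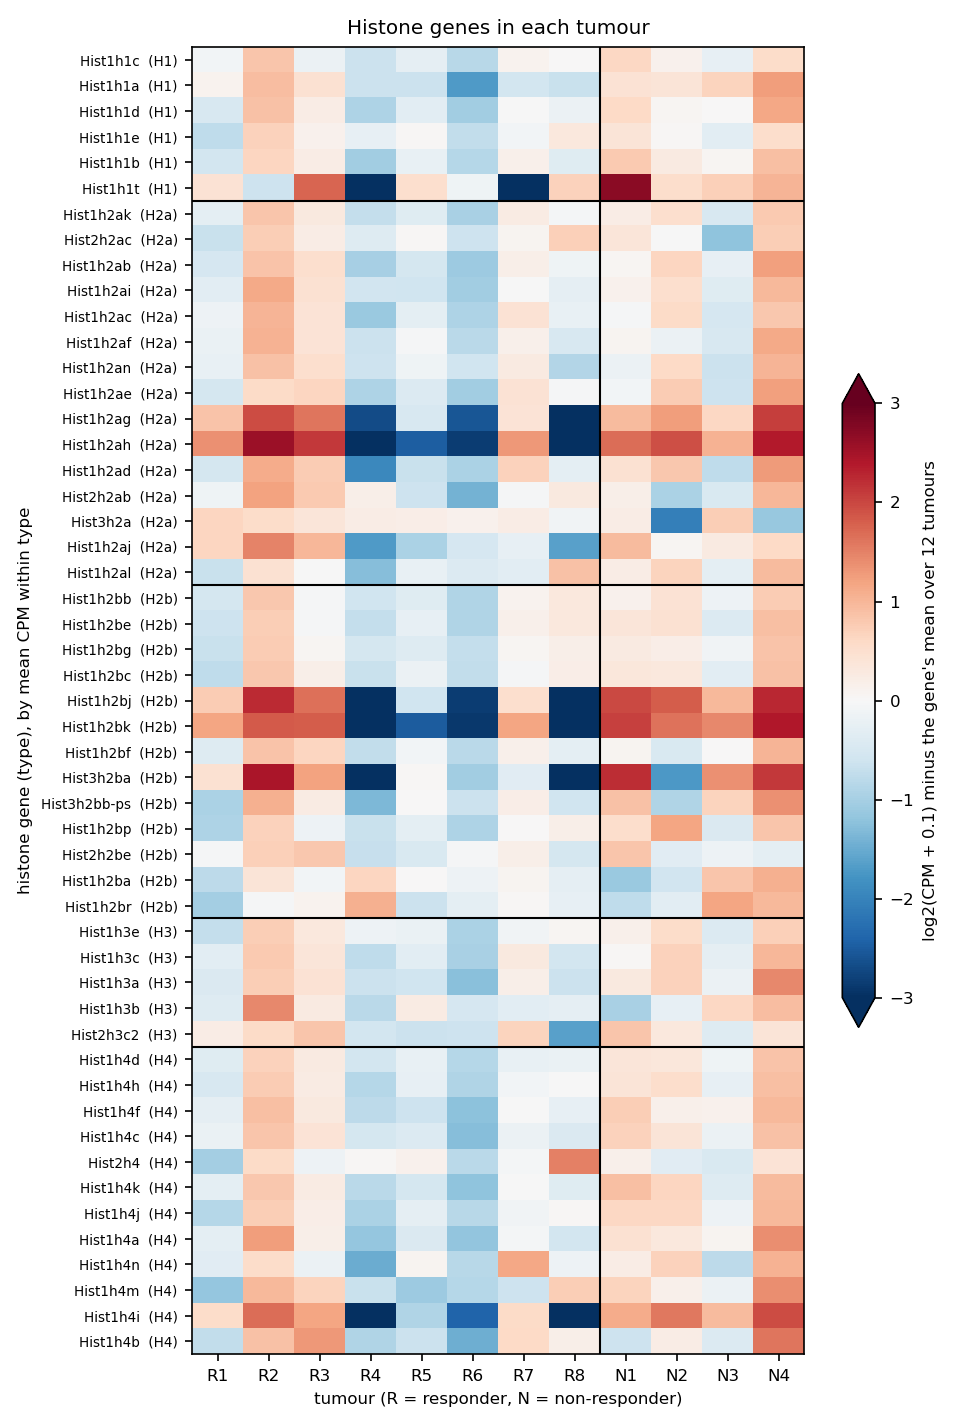
Each of the 51 histone genes (rows, grouped by type) in each tumour (columns; R responder, N non-responder), as log2(CPM + 0.1) minus the gene's mean over the 12 tumours. Most rows share the columns that are high (R2, N4) and low (R4, R6), while Hist1h2ag, Hist1h2ah, Hist1h2bj, Hist1h2bk, Hist1h4i and Hist3h2ba are far lower in R4 and R8.

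Within this common rise and fall, the spread of a gene's log2 CPM over the 12 tumours (SD) had a median of 0.66 for the 43 members with a mean of 10 CPM or more, against 0.42 for the 9981 genes at that level. Of these 43, 37 varied 2.75- to 9.36-fold between the highest and lowest tumour (median 4.33-fold). The other 6 (14.0%) varied over 10-fold, a share near the 11.5% of all genes at that level. These 6 were Hist3h2ba and 5 neighbours on chromosome 13, which were singled out after their values were seen.

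The 5 neighbours were Hist1h2ah, Hist1h2bk, Hist1h4i, Hist1h2ag and Hist1h2bj, in this order on chr13:22035164-22043676 (GRCm38), a stretch of 8513 bases. They form an island of their own: the next histone genes of the table lie 197633 bases to one side and 1487373 to the other. Hist1h2bk was at 184, 287 and 284 CPM in responders 1 to 3, at 7.19, 14.1 and 10.8 in responders 4 to 6, at 183 in responder 7 and at 3.05 in responder 8. In non-responders 1 to 4 it was at 331, 251, 218 and 427 CPM. Hist1h2bj was at 158, 439 and 291 CPM in responders 1 to 3, at 8.62, 61.1 and 12.7 in responders 4 to 6, at 132 in responder 7 and at 2.22 in responder 8. In non-responders it was at 365, 329, 182 and 442 CPM. Responders 4, 6 and 8 thus had little of either H2b gene and responder 5 had little Hist1h2bk, while all non-responders had both at high level.

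The H2a and H4 genes of the island followed the same tumours. Hist1h2ah was at 2.11, 3.68, 2.82 and 0.278 CPM in responders 4, 5, 6 and 8, against 51.5 to 125 in the other responders and 43.0 to 110.3 in non-responders. Hist1h2ag was at 5.27, 24.6, 5.78 and 2.02 CPM in those responders, against 46.2 to 134 and 53.2 to 147. Hist1h4i was at 2.11, 10.3, 3.57 and 2.06 CPM, against 28.2 to 61.5 and 37.4 to 74.6. In most other genes of the chromosome 13 cluster responder 4 or 6 was also the lowest or next to it, mostly by less. Hist1h1a was at 252 CPM in responder 6 and 509 in the next lowest tumour, and Hist1h4f at 214 in responder 6 against a responder median of 422.

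**Figure D4:**
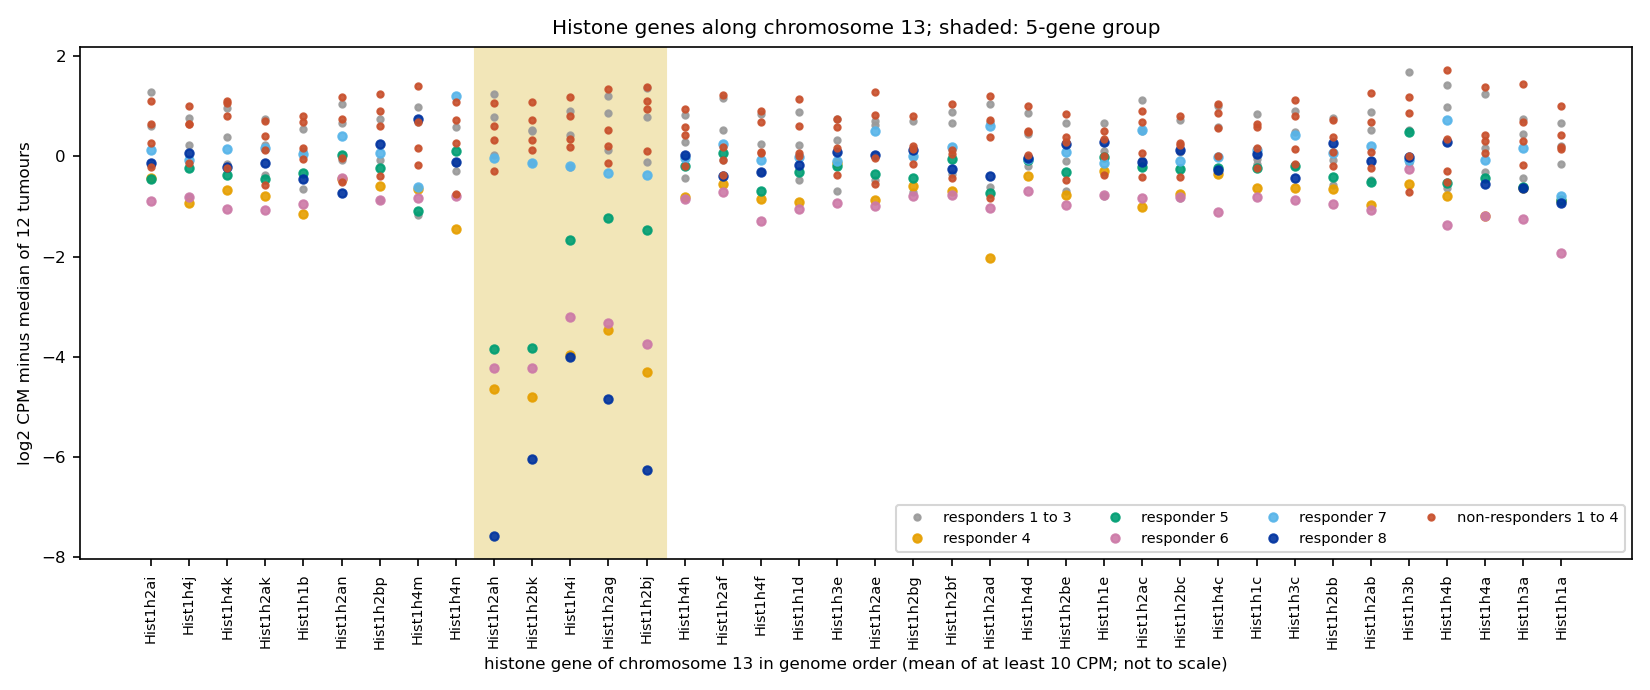
Histone genes of chromosome 13 with a mean of 10 CPM or more, in genome order (x axis, not to scale), as log2 CPM minus the gene's median over the 12 tumours. Each point is a tumour. In the shaded island of 5 genes, responders 4, 6 and 8 lie far below the median (Hist1h2bk at 3.05 CPM in responder 8, against a responder median of 98.4) and responder 5 below it too, while in the genes on both sides responders 4 and 6 are often lowest but in most genes lie closer to the other tumours (Hist1h4f at 214 CPM in responder 6, against a responder median of 422).

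Because a low histone sum would lower every gene, the island was also taken as a share of its type. Hist1h2bj and Hist1h2bk together took 22.8%, 19.0% and 23.5% of H2b counts in responders 1 to 3, 1.41%, 4.98% and 2.35% in responders 4 to 6, 14.5% in responder 7 and 0.266% in responder 8. In non-responders they took 24.3%, 21.2%, 20.3% and 21.2%, so these stood together at the upper end, close to responders 1 to 3. Hist1h2ag and Hist1h2ah took 0.172% (responder 8) to 10.4% (responder 1) of H2a counts, and 8.38% to 9.88% in non-responders. Hist1h4i took 0.0524% to 1.01% of H4 counts in responders and 0.773% to 1.20% in non-responders. The group test gave log2 fold changes of 1.34 (SE 0.99) for Hist1h2bk, 1.26 (0.97) for Hist1h2bj, 1.22 (0.78) for Hist1h4i, 0.86 (0.86) for Hist1h2ag and 0.86 (1.10) for Hist1h2ah. The edgeR adjusted p ran from 0.354 to 0.657. Exact permutation p ran from 0.0606 (Hist1h4i) to 0.149 (Hist1h2ag), and from 0.260 to 0.369 when adjusted over all genes. Responders 4, 5, 6 and 8 lay below all non-responders in each of these genes. Responders 2 and 3 lay within the non-responders' range, or above it for Hist1h2ah in responder 2. Between 22.4% (Hist1h4i) and 91.5% (Hist1h2ah) of the 75-base windows of these genes also occur in other genes, mostly of the same type, so part of their reads may have been left out or counted elsewhere.

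**Figure D5:**
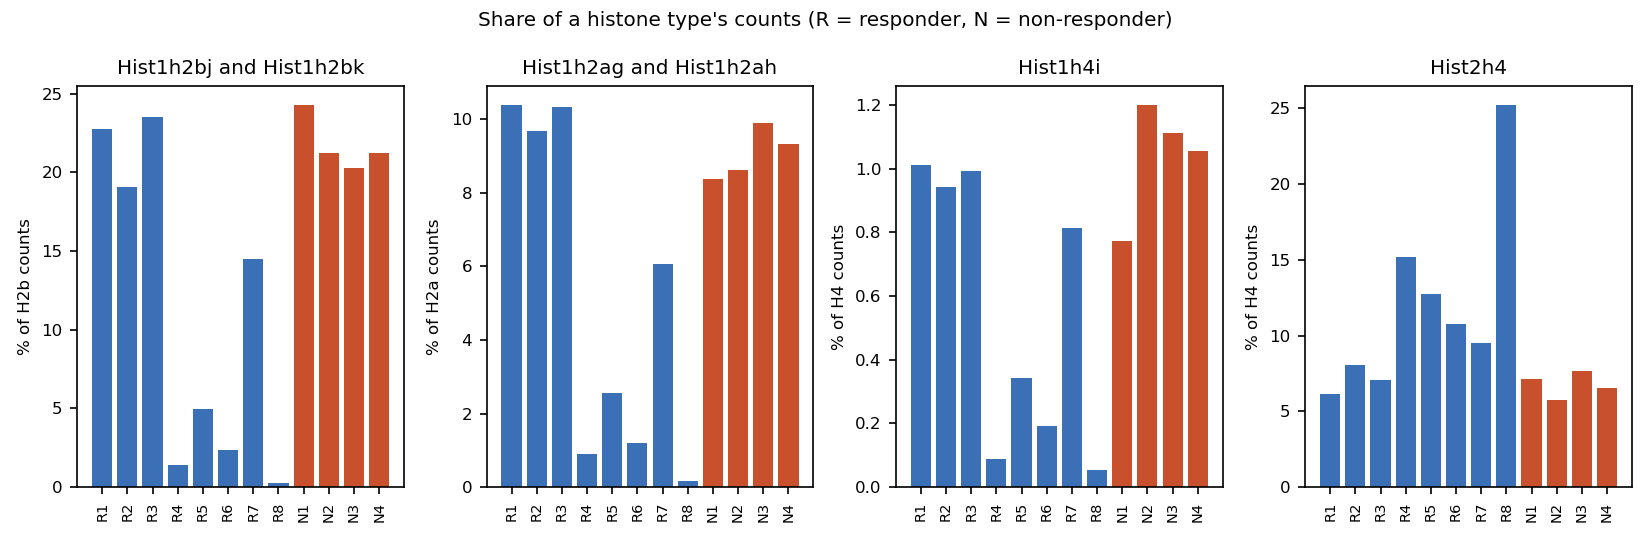
Share of a type's counts (%) taken by the island's H2b pair, its H2a pair and its H4 gene, and by Hist2h4, in each tumour (R responder, blue; N non-responder, red). The first 3 panels are near 0 in responders 4, 6 and 8 and low in 5, while Hist2h4 has its highest shares in responders 4 to 8.

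Of 21 other annotated genes within 150000 bases of the island, 2 had a mean of 1 CPM or more. Zfp184, a zinc finger gene at lower coordinates, was at 7.27, 7.36 and 10.6 CPM in responders 1 to 3, at 1.40, 1.11, 1.5, 1.38 and 0.595 in responders 4 to 8, and at 7.52, 9.07, 10.6 and 8.49 in non-responders. It was low in the 4 tumours with little of the island's RNA and also in responder 7. Prss16, a thymus-specific serine protease gene between Zfp184 and the island, did not follow: it was at 9.40, 2.46, 3.78 and 1.98 CPM in responders 4, 5, 6 and 8, and at 1.89 or less in all non-responders. Erythroid markers summed to 2410, 2624 and 2805 CPM in responders 4 to 6 but to 141 in responder 8, the tumour with the least RNA from the island. T-cell markers summed to 473, 1106, 795 and 1136 CPM in responders 4, 5, 6 and 8, and to 1156 in responder 7. The part of other cell types in these levels was not tested.

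Promoters of the island were compared by letters, since its genes moved together. The sequences are those of RefSeq (GRCm38.p6), 250 bases before to 50 after the start, matched for 44 of the 51 genes (45 sequences). Searched on both strands, TATAAA was in 64.4% of them and in 13.6% of all 32851 promoters, and CCAAT in 82.2% against 37.4%. CCAAT was in every H1, H2a, H2b and H3 promoter but in 3 of 11 for H4 (27.3%). The octamer ATTTGCAT was in 6 of 13 H2a and 5 of 11 H2b promoters, in none of H1, H3 or H4, and in 1.74% of all promoters. The promoters of both island H2b genes and of Hist1h2bb, the leading H2b gene outside it, are given with these motifs in capitals on either strand: Hist1h2bk at chr13:22035571-22035870, Hist1h2bj at chr13:22042948-22043247 and Hist1h2bb at chr13:23746484-23746783, all on the plus strand.
Hist1h2bk: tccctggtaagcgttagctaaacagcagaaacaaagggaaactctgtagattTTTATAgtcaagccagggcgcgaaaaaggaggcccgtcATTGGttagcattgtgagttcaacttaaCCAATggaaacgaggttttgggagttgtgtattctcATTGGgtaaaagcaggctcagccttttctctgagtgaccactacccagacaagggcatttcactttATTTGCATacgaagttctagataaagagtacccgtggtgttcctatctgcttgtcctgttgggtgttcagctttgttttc
Hist1h2bj: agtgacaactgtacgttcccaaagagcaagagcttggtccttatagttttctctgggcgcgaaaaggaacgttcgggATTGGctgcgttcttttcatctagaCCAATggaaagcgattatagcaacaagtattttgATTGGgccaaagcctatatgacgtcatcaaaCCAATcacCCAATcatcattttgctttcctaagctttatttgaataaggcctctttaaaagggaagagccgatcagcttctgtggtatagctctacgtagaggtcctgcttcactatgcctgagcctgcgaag
Hist1h2bb: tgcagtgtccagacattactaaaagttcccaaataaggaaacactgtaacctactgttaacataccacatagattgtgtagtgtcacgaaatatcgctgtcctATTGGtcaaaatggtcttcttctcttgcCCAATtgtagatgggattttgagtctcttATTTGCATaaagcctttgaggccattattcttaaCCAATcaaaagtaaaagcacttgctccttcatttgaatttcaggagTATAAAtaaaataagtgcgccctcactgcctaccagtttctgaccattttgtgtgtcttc

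Hist1h2bk held all 3 motifs, but TATAAA only on the opposite strand, as TTTATA far from its start. Hist1h2bb, which was high in every tumour, also held all 3, with TATAAA on its own strand. Hist1h2bj held CCAAT at several places but neither TATAAA nor the octamer. Hist1h2ah and Hist1h2ag are read in the other direction from nearly the same windows as Hist1h2bk and Hist1h2bj, and so shared their motifs. Hist1h4i held TATAAA alone, on its own strand but also far from its start.

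Hist2h4, an H4 gene of the chromosome 3 cluster with no 75-base window shared with other genes, did not follow the island. Its level was 171, 524 and 315 CPM in responders 1 to 3, 359.6, 385, 199.9, 337 and 992 in responders 4 to 8, and 385, 277, 256 and 464 in non-responders. As a share of H4 counts it was 15.2%, 12.8%, 10.8%, 9.51% and 25.2% in responders 4 to 8, and between 5.78% and 8.03% in the other 7 tumours. Its log2 fold change was -0.25 (SE 0.41, edgeR adjusted p = 0.739), and 0.078 without responder 8.

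Hist3h2ba, an H2b gene of chromosome 11, was at 37.2, 148, 63.4, 2.99, 27.7, 13.2, 21.6 and 2.18 CPM in responders 1 to 8 and at 127, 8.14, 70.2 and 118 in the non-responders. It shared the low values of responders 4 and 8 with the island, but was low in non-responder 2 as well. Its log2 fold change was 1.03 (SE 0.92, edgeR adjusted p = 0.511). The other H2b member of chromosome 11, Hist3h2bb-ps, is annotated as a processed pseudogene. It had a mean of 46.3 CPM and took 2.03% of H2b counts.

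Genes of DNA replication, whose expression textbook biology ties to that of histones, were set beside them. Of 31 S-phase genes, 28 had higher means in non-responders (48.5% of all genes), with a median log2 fold change of 0.37. At an unadjusted p of 0.05, 4 of 31 were higher, beside 7.73% of all genes, and after adjustment 0 were (edgeR). Rrm2, a subunit of the enzyme that makes deoxyribonucleotides, had 0.85 (SE 0.31), Mcm7, a subunit of the replicative helicase, 0.72 (SE 0.29), and its partner Cdc45 0.61 (SE 0.24), with edgeR adjusted p of 0.135, 0.158 and 0.158. Mki67 (0.37), Top2a (0.28) and Mcm6 (0.40) were the highest in level and had adjusted p of 0.457, 0.611 and 0.416. Without non-responder 4 the count of 4 was 0, and without responder 2 it was 10, shifts in the same directions as for the histones. The shares of all genes in these fits are not given here.

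The summed S-phase level was lowest in responder 4 (3389 CPM) and responder 6 (4518), and highest in responder 2 (10107) and non-responder 4 (11064), the same tumours that stood at the ends for histones. The ratio of histone to S-phase level lay between 1.39 (responder 6) and 2.29 (responder 4), with means of 1.84 ± 0.349 in responders and 2.05 ± 0.223 in non-responders (n = 8 and 4, ± SD), and the groups overlapped. Histone levels thus differed 3.81-fold between tumours and their ratio to the S-phase list less. Both are sums from the same libraries.

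Of 20 measured genes for histone mRNA processing and histone delivery, 14 had higher means in non-responders, beside 48.5% of all genes, with a median log2 fold change of 0.21. At an unadjusted p of 0.05, 3 of 20 were higher, beside 7.73% of all genes, and 0 passed after adjustment. These 3 were Eri1, an exonuclease that trims histone mRNA (0.68, SE 0.25), Chaf1b, a subunit of the chromatin assembly factor (0.84, SE 0.34), and Cstf2, of the cleavage stimulation factor (0.64, SE 0.29), with edgeR adjusted p of 0.139, 0.162 and 0.209. Slbp, which binds the stem-loop, was at 114 to 299.8 CPM in responders and 159, 213, 151 and 312 in non-responders, within or just above the responders' range, with a log2 fold change of 0.18 (SE 0.28) that became -0.080 without non-responder 4. Casp8ap2 (0.00) and Sympk (0.31) did not pass either.

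The replication-independent variants, most of which can replace core histones outside S phase, were mixed. Of 10 measured, 8 had higher means in non-responders, beside 48.5% of all genes (median log2 fold change 0.28). At an unadjusted p of 0.05, 2 were higher, beside 7.73% of all genes, and 2 lower, beside 16.1%, and 0 passed after adjustment. H2afy, the gene of macroH2A1, was at 88.7 to 234.5 CPM in responders and 196, 306, 209.8 and 309.8 in non-responders, with overlap through responders 2 and 3. It had a log2 fold change of 0.87 ± 0.28 (SE; adjusted p in edgeR 0.118). H2afv, of the H2A.Z kind, had 0.62 (SE 0.20, adjusted p = 0.119). H2afy2, of macroH2A2, was low, at 0.493 to 3.64 CPM in responders and 0.413, 0.196, 0.92 and 0.59 in non-responders. Its value was -1.57 on the log2 scale (SE 0.57, adjusted p = 0.136). The other lower gene, H2afj, was at 34.4 to 56.9 CPM in responders and 27.6 to 36.9 in non-responders. The log2 fold change of H2afj was -0.51 (SE 0.20, edgeR adjusted p = 0.154). H3f3b (0.32), H2afz (0.24) and H2afx (0.18) were the highest in level, and H2afx turned to -0.36 without non-responder 4. In DESeq2, H2afy and H2afy2 passed the adjusted threshold, in opposite directions, beside 2.8% of all genes higher and 10.4% lower.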

How the data were processed

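RNA-seq of 12 tumours, 1 library each, was used as the raw counts that the authors deposited, whole numbers for every Ensembl gene. Per the submitters' processing notes HTSeq made the counts and DESeq was used after it. The notes name the build NCBIM37, whereas mm10 is named in the labels' extract protocol. Tool versions, the aligner and strand use: not given in the sources used here. Per the labels' protocols the libraries came from a TruSeq mRNA kit and were read as 75-base pairs, 4 to a lane, and the labels do not assign tumours to lanes. Groups come from the label for response to p53 restoration, and nothing shows whether libraries shared a preparation day.

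Of 37991 identifiers, 32919 matched a GENCODE M21 symbol (GRCm38). Coordinates are GENCODE M21 positions, 1-based, and were not used in counting. Windows of 75 bases of each annotated exon sequence were searched in all other annotated transcripts; 20 members shared at least 50% of them and 5 shared none, which can leave reads of near-identical copies uncounted or misplaced.

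Genes passing filterByExpr (18612) were scaled by TMM and tested with edgeR 4.0.16 in R 4.3.3 (quasi-likelihood F test, robust, group as sole term, two-sided), with Benjamini-Hochberg adjustment over all genes and a threshold of 0.05. SE were derived from the F statistic. Exact permutation tests compared mean log2 CPM over every way to split the 12 tumours 8 to 4, two-sided, and were adjusted over all genes. Sums of CPM, shares of counts and ratios carry no test. The precision is set by 8 and 4 tumours: the sums rest on 185209 to 546677 histone counts a tumour. Alternatives were scaling by RLE or by the upper quartile, keeping every gene or those with 1 CPM in 4 tumours, dispersion without the robust option, limma-voom (limma 3.58.1) with quality weights, DESeq2 1.42.0, and leaving out each tumour; coding length was added after seeing the data. Libraries were not repeats (chi-square per degree of freedom at least 58.8 over 66 pairs). The test was also run on counts simulated from the levels and dispersions fitted to these data.

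Members and lists were chosen with earlier results of these data known. Named are all H1 genes, the 3 genes of highest mean CPM in each other type, the 5 members of lowest p in each direction, and from each list the 3 of highest level and the 3 of lowest p. The island of 5 genes, Hist3h2ba, Hist3h2bb-ps, Hist1h3b, the low-level genes, H2afj, Zfp184 and Prss16 were chosen after their values were seen. The list symbols H1f0, Cpsf3l, Zcchc6 and Ahsp were not matched and are not analysed here.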

Additional observations from a re-analysis of the deposited data

Results flagged for a closer look

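For the 30 named histone genes, the sum of each type and the shares of a type, the highest or lowest tumour of each group was set against the group's range by Dixon's criterion. Of 86 groups of tumours examined, 5 held a tumour far from the others, and chance gives about 1 in 20. Responder 2 was far above the other 7 responders for Hist1h1c (1967 CPM) and for Hist3h2ba (148 CPM). Responder 8 was far above the others for Hist2h4 (992 CPM), and without it the log2 fold change of that gene went from -0.25 to 0.078. Hist1h1t, the germ-cell H1, stood apart in responder 3 (17.5 CPM) and in non-responder 1 (34.2 CPM), at low levels throughout. What sets these tumours apart was not tested.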

How the results depend on the processing

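Direction held for most named genes: of 570 values of 30 named histone genes under the settings, 555 kept both direction and side of the adjusted threshold, 13 turned for 3 genes, and 2 passed the threshold (limma-voom). Hist2h2ab (-0.09) turned to 0.20 in limma-voom and to 0.14, 0.021, 0.17 and 0.094 without responder 2, responder 3, non-responder 2 and non-responder 3. Hist2h2ac (0.03) turned to -0.036 with upper-quartile scaling, -0.0019 in limma-voom, and -0.038, -0.018, -0.041, -0.057 and -0.25 without responders 1, 4 and 6 and non-responders 1 and 4. Hist2h4 (-0.25) turned to 0.078 without responder 8. Casp8ap2 (-0.00) turned to 0.016 (RLE, and DESeq2), 0.042 (no filter), 0.084 (limma-voom), and to 0.020, 0.10, 0.0070, 0.053, 0.064 and 0.046 without responders 1, 2, 5 and 8 and non-responders 2 and 3. H2afx and Slbp turned to -0.36 and -0.080 without non-responder 4. Limma-voom raised the counts of members higher at an unadjusted p of 0.05 from 6 to 23 and after adjustment from 0 to 2. For the S-phase list the counts were 13 and 3, and after adjustment 2 for the processing list and 2 for the variants. In that fit 15.4% of all genes were higher at an unadjusted p of 0.05, and 4.55% after adjustment. DESeq2 called 2 variants after adjustment, beside 2.8% of all genes higher and 10.4% lower. With no filter 1 variant in place of 2 was lower at an unadjusted p of 0.05. Leaving out each tumour, members higher at an unadjusted p of 0.05 ranged from 0 to 21 and lower from 0 to 1, S-phase genes higher from 0 to 10, processing genes higher from 1 to 5, and variants lower from 0 to 2. The shares of all genes in these fits are not given here. The log2 ratio of the summed members was 0.52 and ranged from 0.32 to 0.72 when each tumour was left out. The cause of these shifts was not tested. With 4 non-responders and a histone sum that varied 3.81-fold between tumours, the sums of the groups overlapped, and their difference was not tested. No paired analysis was made because the labels give no pairing and count each tumour as a separate sample.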

Other observations

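Rag1, the recombinase gene of immature T and B cells, was looked at after the island's values were seen, as a gene of T-cell development. It was at 895, 1204 and 1262 CPM in responders 1 to 3, at 0.456, 2.91, 0.51, 0.41 and 0.714 in responders 4 to 8, and at 1498, 168, 1756 and 1264 in non-responders. Its 5 low tumours hold the 4 in which the island Hist1h2ah to Hist1h2bj was low and, in addition, responder 7, where the island was at an intermediate level. Zfp184 was low in the same 5 tumours, and Hist2h4 took its highest shares of H4 counts in them. No test was made, since the gene was picked on these values.

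Hist1h1a took 29.6% of H1 counts in non-responder 3 and 11.9% in responder 6, the ends of its range.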
